A study of Mus musculus with 5 samples.

Results

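Lypd1, Lynx1, Ly6h and Ly6e encode small lipid-anchored surface proteins of the Ly6/uPAR family, and Chrnb2 encodes the beta2 subunit of neuronal nicotinic acetylcholine receptors. These 5 genes were taken from the 14715 genes of the deposited matrix for their known link to nicotinic receptors, and all 5 were present. The choice was made with earlier results of these data known. They were followed in 1954 single neurons of the spiral ganglion of the mouse, whose neurons connect cochlear hair cells with the brainstem. RNA of sorted cells was counted with a droplet assay that reads the 3' end of transcripts, in which a unique molecular identifier (UMI) tags each molecule.

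The CKO group had 3 samples with the genotype bhlhb5-Cre/+; Ai14/+; Runx1F/F, and the control group 2 samples with bhlhb5-Cre/+; Ai14/+. Both groups therefore carried the bhlhb5-Cre transgene, which also drives the tdTomato reporter of Ai14 that was used for sorting. Per the labels and the design text, both sexes were used at 30 to 33 days of age, and floxed Runx1 was removed in the embryo. Runx1 is a transcription factor. The study compares the subtypes of auditory neurons that form with and without it.

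Ly6/uPAR proteins sit on the outer side of the membrane and can bind nicotinic receptors, and several of them slow the receptors' assembly, transport or opening. Lynx1 is the best-known brake of this kind in the brain, and Ly6h limits the surface level of alpha7 receptors. In the cochlea, acetylcholine is released by efferent fibres from the brainstem that end on outer hair cells and on the peripheral processes of type I neurons. Type I neurons make up most of the ganglion and contact inner hair cells. They are commonly divided into Ia, with high Calb2, Ib, with Calb1, and Ic, with Lypd1. Type II neurons contact outer hair cells.

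Each cell is assigned to a genotype but to no sample, so a genotype counts as 1 pool with no replicates, and no test between them was possible. Levels are mean UMIs per 10000 UMIs of a cell, and log2 differences are CKO over control after adding 0.1 to each mean. Ratios of UMI rates carry exact 95% intervals, and shares of cells carry exact Clopper-Pearson intervals. All of these cover counting error only. The pools held 884 CKO neurons with a median of 44120.5 UMIs and 1070 control neurons with a median of 38085 UMIs. Neurons were split as the rule asks. Type II neurons had Dupd1 of 1 or more (152 CKO and 119 control cells). Among the others, Calb2-high type I neurons had Calb2 of 150 or more (384 and 242 cells), and Calb2-low type I neurons lay under it (348 and 709 cells). The Calb2 limit cuts a range and not a gap, since 99 CKO and 40 control neurons had Calb2 from 125 to 175.

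Marker genes bore out the class names in part. Of the fixed type II markers, Th (3.98 in CKO and 5.09 in control type II cells), Plk5 (3.51 and 4.63), Ngfr (8.06 and 8.95) and Prph (0.838 and 2.83) were high in the type II cells. Smad3 had 2 UMIs in CKO and 0 in control type II cells, and Etv4 had 0 and 2. The neuronal marker Nefl was seen in 100% of cells of both genotypes, endothelial and erythrocyte markers were not among the genes of the matrix, and 2 of the 1954 cells had under 10 UMIs per 10000 summed over 8 neuronal markers. RNA of glia was present in both pools, with a summed level over 6 Schwann cell and satellite glia genes of 20.9 in CKO and 23.7 in control. No doublet caller was run.

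The alphabetical order of the barcodes restarts along the matrix, which gives 5 stretches of columns, 3 with CKO cells (stretches 1, 3 and 4) and 2 with control cells (stretches 2 and 5). No source used here names them as samples, so they serve to show spread and were never counted as replicates. CKO stretch 4, with 157 cells, stood apart from the other CKO cells. Calb2-high neurons made up 47.0%, 53.2% and 12.1% of CKO stretches 1, 3 and 4, against 10.8% and 32.3% of control stretches 2 and 5. Values by stretch or without stretch 4 are therefore given beside the results that it moved. Control stretches could also differ. Prph in type II cells averaged 1.02, 0.467 and 1.515 in CKO stretches 1, 3 and 4, against 4.35 and 0.502 in control stretches 2 and 5, and overlapped. Runx1 RNA itself, at 1.68 in CKO and 1.23 in control neurons, could not check the deletion, because the assay reads the 3' end and not the removed part of the gene.

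Lypd1 was carried by fewer CKO than control neurons. Lypd1 (chr1:125867622-125913101, mm10, minus strand) averaged 4.32 in CKO neurons and 10.6 in control neurons, from 16449 and 43100 UMIs. The log2 difference was -1.27 and the ratio of UMI rates 0.415 (0.407 to 0.422), which is 2.41-fold lower in CKO. Of the 5 members, Lypd1 and Lynx1 reached a mean of 0.5 in either genotype, and 1 of these, Lypd1, was at least 2-fold lower. Over the whole matrix, 3 of 3784 genes with that mean did so, or 0.0793%, and Lypd1 had the second-lowest log2 value of them. Since the members were chosen with earlier results of these data known, this place is a description only.

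The stretches overlapped between genotypes. Mean Lypd1 was 2.22, 1.76 and 15.1 in CKO stretches 1, 3 and 4, against 12.8 and 8.78 in control stretches 2 and 5. Stretches 1 and 3 lay below both control stretches, and stretch 4 lay above both. The log2 difference was -2.36 without stretch 4 and -0.77 without stretch 3.

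One of the annotated Lypd1 start sites has a match to the core motif of RUNX factors in the window from 250 bases before to 50 bases after the start, and it is shown here because Runx1 is the deleted gene. The motifs TGTGGT and TGCGGT were searched on both strands in RefSeq promoter windows of GRCm38.p6, which matched Lypd1 with 3 start sites and Chrnb2 with 1. The window at chr1:125912165-125912464 (minus strand) held 1 match, in capitals, 51 bases before the start.

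Lypd1 promoter: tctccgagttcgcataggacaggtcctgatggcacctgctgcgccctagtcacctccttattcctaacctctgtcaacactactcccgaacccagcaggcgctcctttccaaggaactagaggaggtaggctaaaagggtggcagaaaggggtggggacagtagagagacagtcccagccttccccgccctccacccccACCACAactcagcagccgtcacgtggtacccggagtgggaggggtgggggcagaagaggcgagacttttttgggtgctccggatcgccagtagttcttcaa

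The other Lypd1 windows and the Chrnb2 window held 0 matches. Of 32851 windows of the same length, 22.4% held at least 1 match, and of 721 genes with 3 start sites in the table, 42.2% held one in some window. The match is a description of letters and not a binding site.

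Over single cells, Lypd1 was close to all-or-none in both genotypes. Cells without any Lypd1 UMI made up 77.9% of the CKO and 59.6% of the control pool. A level of 10 or more, called Lypd1-high here, was reached by 101 CKO neurons (11.4%, 9.40% to 13.7%) and 295 control neurons (27.6%, 24.9% to 30.4%). These cells held 92.5% of all Lypd1 UMIs in CKO and 98.3% in control. From 8 to 12, around the limit, lay 16 CKO and 6 control cells.

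The share of Lypd1-high cells was 6.76%, 6.18% and 34.4% in CKO stretches 1, 3 and 4, against 35.9% and 20.7% in control stretches 2 and 5. CKO without stretch 4 had 6.46%.

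**Figure D1:**
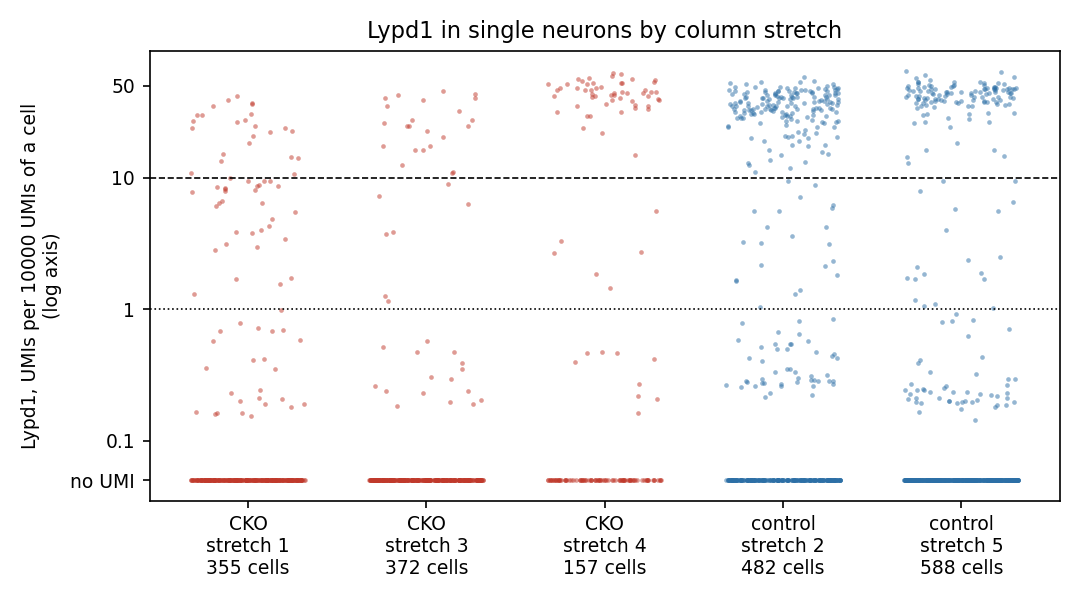
Lypd1 in each neuron (UMIs per 10000 UMIs of the cell, log axis, cells without a UMI at the bottom) by column stretch, CKO in red and control in blue, with lines at 1 and 10. Most cells sit at no UMI or above 10, and CKO stretch 1 holds more cells between the lines than the other stretches.

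Split into share and level, the pooled difference lay mostly in the share. The share of Lypd1-high cells in CKO was 0.414 of that in control. The level within these cells was close in the pools, with a mean of 35.3 and a median of 36.3 in CKO and a mean of 37.7 and a median of 38.9 in control. That likeness rested on stretch 4. Lypd1-high cells averaged 24.7, 26.8 and 43.6 in CKO stretches 1, 3 and 4, against 34.9 and 41.6 in control stretches 2 and 5. Without stretch 4 the 47 remaining CKO cells averaged 25.8, so in stretches 1 and 3 both the share and the level were below control.

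Intermediate cells, with Lypd1 from 1 to under 10, numbered 44 in CKO and 41 in control. They made up 30.3% (23.0% to 38.5%) of CKO cells with Lypd1 of 1 or more and 12.2% (8.90% to 16.2%) of such control cells. By stretch this share was 56.4%, 23.3% and 10% in CKO stretches 1, 3 and 4, against 11.3% and 13.5% in control stretches 2 and 5. Stretch 1, with 31 of the 44 CKO cells, set most of the pooled CKO value.

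Every Lypd1-high neuron of both genotypes was a Calb2-low type I neuron. Among Calb2-high type I neurons there were 0 of 384 in CKO, with an exact interval of up to 0.956%, and 0 of 242 in control, with one of up to 1.51%. Mean Lypd1 in these cells was 0.0124 in CKO, from 23 UMIs, and 0.0151 in control, from 16 UMIs. In Calb2-low cells it was 10.9 in CKO and 15.9 in control, a log2 difference of -0.54, with the UMI rate 1.42-fold lower. In these cells 0 of the 2 members with a mean of 0.5 were at least 1.5-fold lower, against 14 of 3813 genes, or 0.367%, and Lypd1 held place 19 from the lowest. The Calb2-low means were 5.97, 6.33 and 20.6 in CKO stretches 1, 3 and 4, against 17.1 and 14.7 in control stretches 2 and 5, and the log2 difference was -0.20 without stretch 1, -0.31 without stretch 3 and -1.36 without stretch 4. It also depended on the Calb2 limit and was -0.20 at a limit of 100.

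Of all genes with a mean of 0.5, Lypd1 had the lowest Calb2-high over Calb2-low log2 value in each genotype, -6.62 in CKO and -7.12 in control. Lypd1 is a known marker of type Ic, so this place too is a description only. Of the 2 members with that mean, 1 was at least 2-fold lower in the Calb2-high cells. Of all genes, 0.642% in CKO and 1.19% in control were. Stray Lypd1 counts outside the Calb2-low class were few. At least 1 UMI occurred in 4.95% of Calb2-high CKO and 6.61% of Calb2-high control cells, and in 1.97% of type II CKO and 8.40% of type II control cells, at median depths of 50506 and 48726 and of 27102 and 25326 UMIs.

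Within type I neurons the Lypd1-high share dropped steeply with Calb2. At Calb2 under 10 it was 88.6% of 79 CKO cells and 95.8% of 215 control cells. At 10 to 25 it was 30.6% of 36 CKO cells (16.3% to 48.1%) and 55.9% of 111 control cells (46.1% to 65.3%). At 25 to 50 it was 21.2% of 52 CKO cells and 13.2% of 159 control cells, and at 50 to 100 it was 9.76% of 82 CKO cells and 3.47% of 173 control cells. The intervals of both genotypes overlapped in each of these 4 bins.

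The CKO values mixed unlike stretches. At Calb2 under 10, Lypd1-high cells were 12 of 21, 10 of 10 and 48 of 48 cells in CKO stretches 1, 3 and 4, against 114 of 118 and 92 of 97 cells in control stretches 2 and 5. At 25 to 50 they were 4 of 13, 7 of 17 and 0 of 22 cells in CKO stretches 1, 3 and 4, against 14 of 92 and 7 of 67 cells in control stretches 2 and 5. Without stretch 4, the CKO share was 71.0% (52.0% to 85.8%) of 31 cells at Calb2 under 10, below the control interval of 92.2% to 98.1%. It was 36.7% (19.9% to 56.1%) of 30 cells at 25 to 50, above the control interval of 8.37% to 19.5%.

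**Figure D2:**
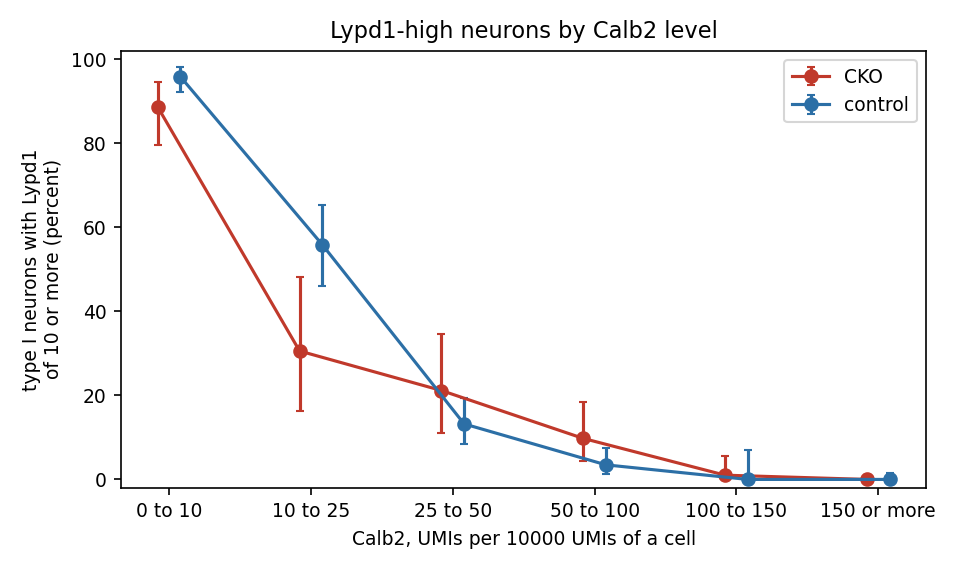
Share of type I neurons with Lypd1 of 10 or more (percent) by Calb2 level (UMIs per 10000), CKO in red and control in blue, with exact 95% intervals that cover counting error only. Both genotypes go from 88.6% in CKO and 95.8% in control at the lowest Calb2 to 0% at 150 or more.

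Lypd1 and Calb1 were together in more CKO than control cells. Calb1 encodes calbindin, a calcium buffer. Calb1 of 1 or more was found in 25 of 101 Lypd1-high CKO neurons (24.8%, 16.7% to 34.3%) and in 3 of 295 Lypd1-high control neurons (1.02%, 0.210% to 2.94%). Mean Calb1 in these cells was 0.983 in CKO and 0.0583 in control. Among type II neurons, for which neither gene is a marker, Calb1 of 1 or more was found in 2 of 152 CKO and 0 of 119 control cells. With every cell thinned to 10000 UMIs, a Calb1 UMI remained in 33.7% of Lypd1-high CKO and 5.08% of Lypd1-high control cells.

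The overlap differed among CKO stretches. Calb1 of 1 or more was found in 16 of 24, 7 of 23 and 2 of 54 Lypd1-high cells of CKO stretches 1, 3 and 4, against 1 of 173 and 2 of 122 in control stretches 2 and 5. CKO stretches 1 and 3 were above both control stretches beyond counting error, and the interval of stretch 4 overlapped theirs. Without stretch 4 the CKO share was 48.9% (34.1% to 63.9%). Calb1 was also more frequent in the other Calb2-low CKO cells. It was found in 83.7% of CKO and 22.5% of control cells with Lypd1 from 1 to under 10, and in 73.5% of CKO and 44.9% of control cells with Lypd1 under 1. The difference was not limited to this class. Calb1 of 1 or more was seen in 43.2% of Calb2-high CKO and 7.85% of Calb2-high control cells. CKO stretches 1, 3 and 4 had 54.5%, 37.4% and 5.26% there, while control stretches 2 and 5 had 17.3% and 5.26%. Ttn and Lrrc52, listed for type Ib, were not higher in pooled Lypd1-high CKO cells. Ttn averaged 0.0524 in CKO and 0.159 in control, and its stretches overlapped. Lrrc52 averaged 0.0119 in CKO (2 UMIs) and 0.0139 in control (13 UMIs).

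**Figure D3:**
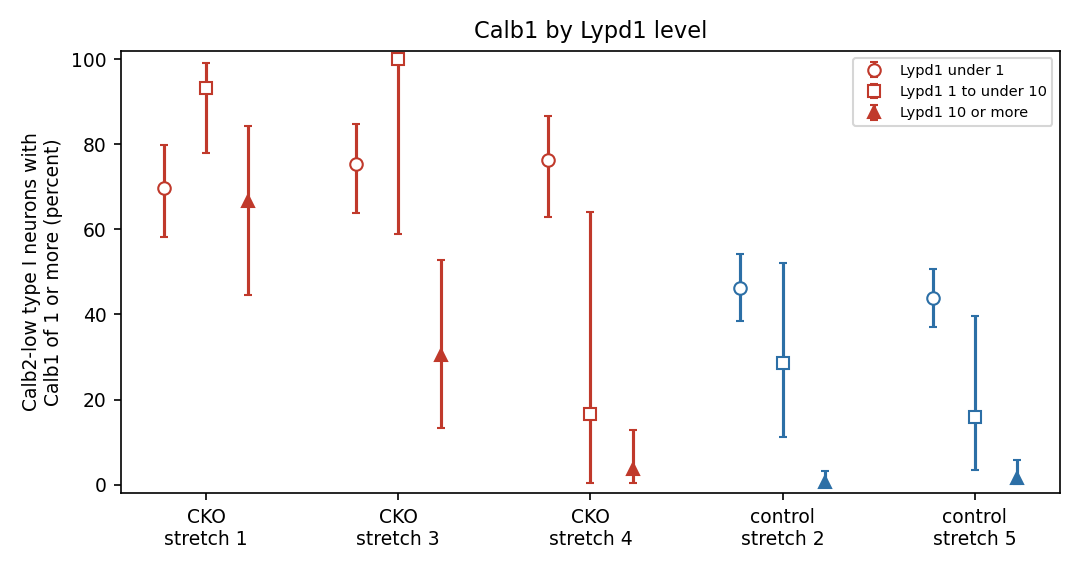
Share of Calb2-low type I neurons with Calb1 of 1 or more (percent) by Lypd1 level and column stretch, CKO in red and control in blue, with exact 95% intervals that cover counting error only. Lypd1-high cells (filled triangles) reach 66.7% in CKO stretch 1 and 30.4% in CKO stretch 3, and lie at 3.70% in CKO stretch 4 and at 0.578% and 1.64% in the control stretches.

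Lypd1 in the pooled Lypd1-high CKO cells averaged 25.3 in the 25 cells with Calb1 and 38.6 in the 76 without. Of these 76 cells, 52 lay in stretch 4, where Lypd1 was highest. Without stretch 4 the means were 24.3 in 23 cells with Calb1 and 27.1 in 24 cells without. Mean Calb2 without stretch 4 was 23.7 in the cells with Calb1 and 28.1 in the others. Median depth was 47862 UMIs in the cells with Calb1 and 41210.5 UMIs in the others. Whether some of these cells are doublets was not tested.

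**Figure D4:**
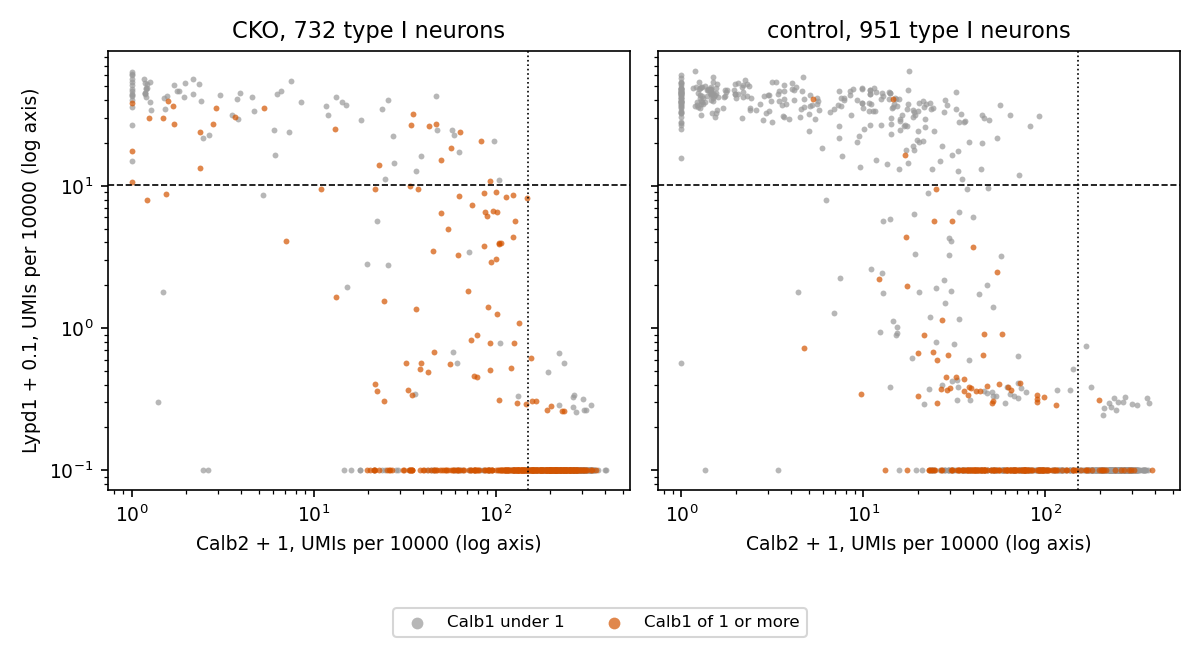
Lypd1 + 0.1 against Calb2 + 1 in type I neurons (UMIs per 10000 UMIs of a cell, log axes), CKO on the left and control on the right, orange where Calb1 was 1 or more, with lines at Lypd1 of 10 and Calb2 of 150. The upper right corner is empty in both panels, and orange cells above the horizontal line number 25 in CKO and 3 in control.

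The 3 other genes of the type Ic list were compared within the Calb2-low class. There Pou4f1 and Grm8 were higher in Lypd1-high than in Lypd1-under-1 cells in both genotypes, and Runx1 was not. Runx1 averaged 2.39 in Lypd1-high and 2.36 in Lypd1-under-1 CKO cells, and 1.85 and 1.72 in the same control cells, with ratios of 0.953 (0.881 to 1.03) and 1.04 (0.981 to 1.11). Over all type I cells, however, Runx1 was higher where Lypd1 was high. It averaged 2.39 against 1.90 with Lypd1 under 1 in CKO, and 1.85 against 1.13 in control. Pou4f1, a POU-domain transcription factor, averaged 1.10 in Lypd1-high CKO cells and 1.20 in Lypd1-high control cells. With Lypd1 under 1 in Calb2-low cells it averaged 0.303 in CKO and 0.149 in control. By stretch this was 0.324, 0.386 and 0.161 in CKO stretches 1, 3 and 4, against 0.213 and 0.0980 in control stretches 2 and 5, and overlapped. Grm8, a metabotropic glutamate receptor, averaged 1.004 and 0.833 in Lypd1-high CKO and control cells. In Calb2-low cells with Lypd1 under 1 it averaged 0.109 in CKO, from 103 UMIs, and 0.0191 in control, from 21 UMIs. There CKO stretches 1, 3 and 4 had 0.189, 0.105 and 0.00508, against 0.0316 and 0.00929 in control stretches 2 and 5. Stretch 4 thus lay below both control stretches.

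The genes whose log values followed Lypd1 most closely over 951 control type I neurons, of 3544 genes with a mean of 0.5, were Pcsk2, Rph3a, Rbfox3, Serpini1 and Dnm3. Pcsk2 is a prohormone convertase, Rph3a a Rab3 effector at synaptic vesicles, Rbfox3 the splicing factor known as NeuN, Serpini1 the protease inhibitor neuroserpin and Dnm3 a dynamin. Their Pearson r with Lypd1 was 0.49, 0.59, 0.55, 0.54 and 0.46 over 732 CKO cells, against 0.67, 0.67, 0.63, 0.61 and 0.58 over the control cells. The points are cells of shared libraries and depth, and the values are descriptions. The genes were chosen by the control values, so a weaker r in CKO is not read as a difference. At the other end stood Calb2 (-0.79 in CKO and -0.81 in control), B3gat1 (-0.47 and -0.71), Cd24a (-0.62 and -0.70), Zfp804a (-0.52 and -0.64) and Kcnk1 (-0.50 and -0.63).

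B3gat1, the enzyme that makes the HNK-1 glycan and a marker listed for type Ia, was near 0 in Lypd1-high control cells and high in those of 2 CKO stretches. Its mean in Lypd1-high cells was 2.04, 1.53 and 0.0155 in CKO stretches 1, 3 and 4, against 0.0620 and 0.0905 in control stretches 2 and 5. Stretches 1 and 3 were above both control stretches, and stretch 4 was below both. In stretch 1, B3gat1 with Lypd1 under 1 was 1.86, near its level in the Lypd1-high cells, and its r with Lypd1 over type I cells was -0.09 there. In Lypd1-high cells of CKO stretches 1, 3 and 4, Rxrg of the same list averaged 0.0062, 0.097 and 0. In control stretches 2 and 5 it averaged 0 and 0.016. Pcdh20 averaged 0.131, 0.120 and 0.0649, against 0.0030 and 0.0770, and Calb2 22.7, 29.3 and 2.93, against 9.27 and 8.03. Rxrg and Pcdh20 were thus below their means of 0.466 and 0.334 in Calb2-high CKO cells.

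Lynx1 (chr15:74747852-74753046, mm10, minus strand) was a gene of type I neurons of every kind. It averaged 2.49 in CKO and 2.71 in control Calb2-high cells, 2.37 and 2.85 in Calb2-low cells, and 0.255 and 0.205 in type II cells. Type I neurons with a Lynx1 UMI made up 99.3% in CKO and 99.8% in control, and type II neurons with one 42.1% and 42.9%. Thinned to 10000 UMIs per cell, these shares were 89.8% and 91.9% in type I and 26.3% and 14.3% in type II.

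The type II over type I ratio of Lynx1 was 0.122 in CKO and 0.0763 in control, or 8.21-fold and 13.1-fold lower in type II. Of the 3 members with a mean of 0.5, Lypd1 and Lynx1 were at least 2-fold lower in type II and Ly6h at least 2-fold higher. At least 2-fold lower were 13% of 4251 genes in CKO and 12.9% of 4369 genes in control, so such a fold is common between these classes. Lynx1 stood at places 60 and 40 from the lowest. The log2 value was -2.83, -2.80 and -3.11 in CKO stretches 1, 3 and 4, against -3.45 and -3.02 in control stretches 2 and 5, so each stretch had the same direction. In Lypd1-high against Lypd1-under-1 cells of the Calb2-low class, Lynx1 averaged 2.51 against 2.37 in CKO and 3.002 against 2.71 in control, a ratio of 1.07 (0.993 to 1.15) in CKO and 1.10 (1.05 to 1.16) in control. The intervals of these ratios reach no higher than 1.16, while Lypd1 defines the cells compared.

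Between genotypes, Lynx1 averaged 2.06 in CKO and 2.52 in control neurons, with a log2 difference of -0.28. The UMI rate in CKO was 0.853 of that in control (0.829 to 0.879). It held place 190 from the lowest of 3784 genes. Mean Lynx1 was 1.89, 2.27 and 1.94 in CKO stretches 1, 3 and 4, against 2.46 and 2.57 in control stretches 2 and 5. The stretches did not overlap over all neurons, but in Calb2-high cells stretch 3 (2.73) lay between the control stretches (2.86 and 2.67). Type II cells, in which Lynx1 was low, were 17.2% of CKO and 11.1% of control neurons, and within type I neurons alone the log2 difference was -0.20. Over control type I cells Lynx1 followed Nat8l, an N-acetylaspartate synthase (r of 0.33 in CKO and 0.38 in control), and Iqsec3, a guanine nucleotide exchange factor for Arf proteins (0.28 and 0.31).

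Ly6h (chr15:75551268-75567255, mm10, minus strand) had the reverse class pattern and was a type II gene. It averaged 0.640 in CKO and 0.793 in control type II cells, against 0.0425 and 0.0622 in Calb2-high and 0.0433 and 0.0662 in Calb2-low type I cells. At least 1 UMI occurred in 61.2% of type II CKO and 68.1% of type II control cells, which had the lowest depth of the classes, and in 14.9% and 18.8% of type I cells. The type II over type I ratio was 13.8 (11.2 to 17.1) in CKO and 12.2 (10.1 to 14.6) in control. At least 2-fold higher in type II were 12.2% of genes in each genotype, and Ly6h stood at places 148 and 145 from the highest. The log2 value was 2.19, 2.66 and 2.01 in CKO stretches 1, 3 and 4, against 2.41 and 2.40 in control stretches 2 and 5.

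Ly6h over all neurons was equal in the pools, at 0.146 in each, with a log2 difference of -0.00. It was 0.23 without control stretch 2 and -0.24 without control stretch 5, so the pooled equality rests on both. The type II class, in which Ly6h was high, was the larger in CKO, and within type I neurons the log2 difference was -0.21. Within type II the ratio of UMI rates, CKO over control, was 0.765 (0.638 to 0.917). The means were 0.614, 0.712 and 0.485 in CKO stretches 1, 3 and 4, against 0.839 and 0.722 in control stretches 2 and 5, and did not overlap, though 0.712 and 0.722 were close. Among Calb2-low control cells Ly6h was lower where Lypd1 was high, at 0.0363 against 0.0872 with Lypd1 under 1, a ratio of 0.429 (0.293 to 0.616). In CKO the same ratio was 0.655 (0.309 to 1.30), from 12 and 34 UMIs. No gene followed Ly6h closely over control type I cells, where the highest r was 0.15.

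**Figure D5:**
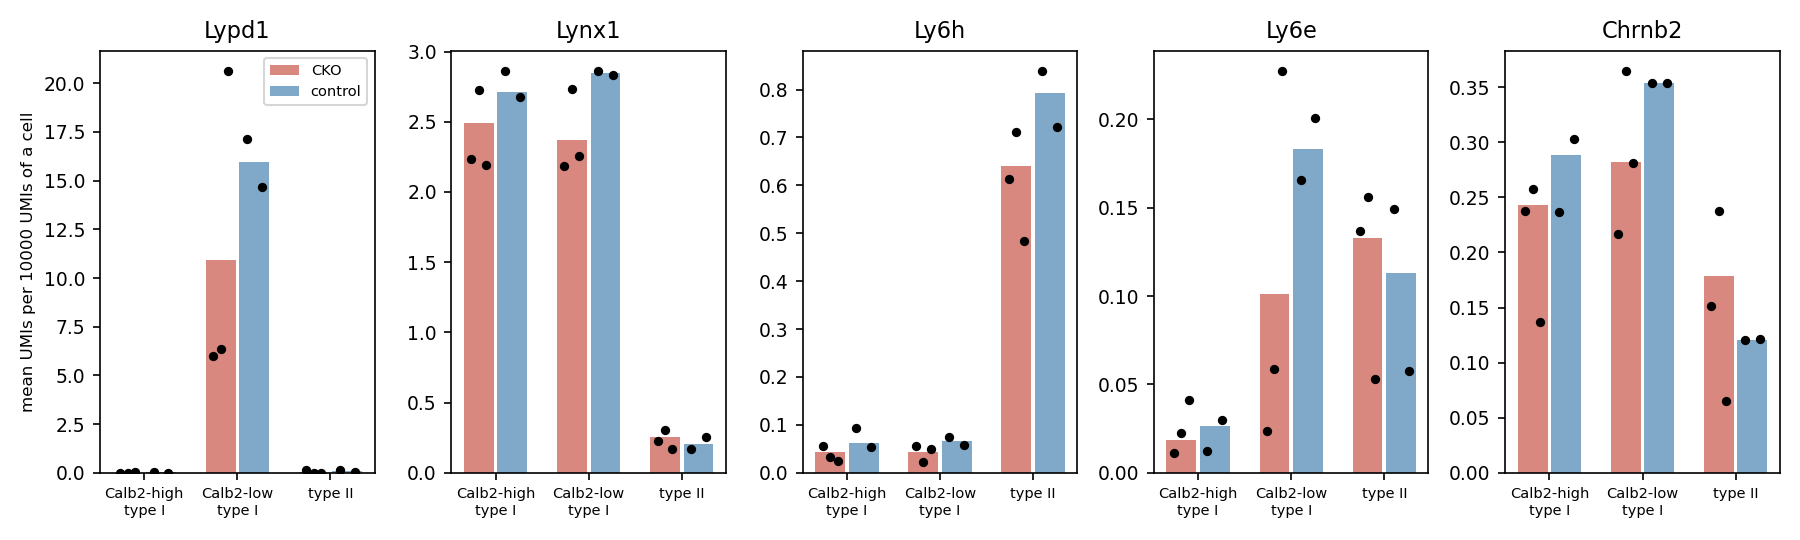
Mean UMIs per 10000 UMIs of a cell of the 5 genes in 3 classes of neurons, with bars for the pooled CKO (red) and control (blue) cells and black points for the column stretches. In the pooled bars, Lypd1 is at 10.9 or more in Calb2-low type I cells and at 0.0904 or less in the other classes. Pooled Lynx1 is at 2.37 or more in both type I classes and at 0.255 or less in type II. Some points lie outside these limits, such as Lypd1 at 5.97 and 6.33 in Calb2-low cells of CKO stretches 1 and 3. Ly6h is highest in type II, and Ly6e is lowest in Calb2-high type I cells.

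Ly6e (chr15:74955051-74959905, mm10, plus strand), a widely expressed family member known in mouse as the receptor of syncytin-A in the placenta, was sparse and low where Calb2 was high. It averaged 0.0184 in CKO and 0.0262 in control Calb2-high cells, 0.101 and 0.183 in Calb2-low cells, and 0.133 and 0.113 in type II cells. The Calb2-high over Calb2-low ratio was 0.206 (0.141 to 0.295) in CKO and 0.153 (0.104 to 0.218) in control. The log2 value of this contrast was -0.15, -0.37 and -1.21 in CKO stretches 1, 3 and 4, against -1.24 and -1.21 in control stretches 2 and 5. Without stretch 4 the CKO ratio was 0.489 (0.298 to 0.801). Ly6e was not a gene of the Lypd1-high cells alone. It averaged 0.147 in Lypd1-high and 0.0943 in Lypd1-under-1 CKO cells, and 0.192 and 0.170 in the same control cells, with ratios of 1.34 (0.936 to 1.91) and 1.11 (0.918 to 1.33).

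Ly6e averaged 0.0707 in CKO and 0.140 in control neurons, from 232 and 567 UMIs, a ratio of UMI rates of 0.445 (0.380 to 0.519). The log2 difference was -0.49, which the added 0.1 makes smaller at such low levels. In Calb2-low cells the means were 0.0234, 0.0587 and 0.227 in CKO stretches 1, 3 and 4, against 0.166 and 0.201 in control stretches 2 and 5. As with Lypd1, stretches 1 and 3 were below both control stretches and stretch 4 was above them. The log2 difference over all neurons was -0.70 without stretch 4 and -0.31 without stretch 1. The type II over type I ratio was 2.25 (1.61 to 3.08) in CKO and 0.786 (0.539 to 1.11) in control, where the interval holds 1. The direction turned in stretch 4. The log2 value of this contrast was 1.02, 0.92 and -0.98 in CKO stretches 1, 3 and 4, against 0.018 and -0.61 in control stretches 2 and 5, and without stretch 4 the CKO ratio was 5.26 (3.57 to 7.70). The type II means themselves were 0.137, 0.156 and 0.0528 in CKO stretches 1, 3 and 4, against 0.149 and 0.0573 in control stretches 2 and 5, and overlapped.

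The genes that followed Ly6e most closely over control type I cells were Btbd9, a BTB-domain protein (r of 0.45 in CKO and 0.32 in control), Ntng1, the netrin-G1 adhesion molecule (0.22 and 0.31), and Slc17a6, the vesicular glutamate transporter VGLUT2 (0.23 and 0.29). The r with Btbd9 was below the pooled CKO value in each CKO stretch, at 0.20, 0.24 and 0.29 in stretches 1, 3 and 4. In control stretches 2 and 5 it was 0.20 and 0.42, below and above the pooled control value. For Ntng1 it was -0.010, 0.064 and 0.28 in the CKO stretches, against 0.20 and 0.39 in the control stretches. For Slc17a6 it was 0.061, 0.12 and 0.28, against 0.21 and 0.36. Btbd9 itself averaged 4.03 in CKO and 10.9 in control type I neurons.

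Chrnb2 (chr3:89746195-89764632, mm10, minus strand) was low and the most even of the 5 genes across classes. It averaged 0.243 in CKO and 0.289 in control Calb2-high cells, 0.282 and 0.354 in Calb2-low cells, and 0.179 and 0.121 in type II cells. Over all neurons it averaged 0.247 in CKO and 0.313 in control, a log2 difference of -0.25 and a UMI rate ratio of 0.797 (0.732 to 0.868). Means were 0.216, 0.283 and 0.232 in CKO stretches 1, 3 and 4, against 0.306 and 0.319 in control stretches 2 and 5, and did not overlap over all neurons. Without stretch 1 the log2 difference was -0.17. In Calb2-low cells they did, at 0.217, 0.365 and 0.281 in CKO and 0.354 and 0.354 in control. In Lypd1-high against Lypd1-under-1 cells Chrnb2 averaged 0.308 against 0.270 in CKO and 0.369 against 0.336 in control, and both intervals of the ratio, 0.858 to 1.34 and 0.964 to 1.27, held 1. A difference in Chrnb2 between these cells was not detectable at this depth. No gene followed Chrnb2 closely, with a highest r of 0.15.

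Genes on the other strand overlap 2 members, and no source used here says whether counting used strand. Gpr39 overlaps Lypd1 and averaged 0.0166 in CKO and 0.0199 in control Calb2-low cells. Adar overlaps Chrnb2 and averaged 0.379 in CKO and 0.445 in control Calb2-low cells, so the low level of Chrnb2 is less certain than that of the others.

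Of 44 listed Ly6/uPAR genes, 10 were in the matrix and 4 reached a mean of 0.2 in either genotype, namely Lypd1, Lynx1, Lypd6b and Cd59a. With the added 0.1, Lypd1 alone of these 4 was at least 1.5-fold lower in CKO, and 0 were at least 1.5-fold higher, against 0.509% and 0.389% of 6678 genes with that mean. Lypd6b fell just short of that limit on this scale and passed it by its UMI rate. The median log2 difference was -0.43 for the 4 genes and -0.03 for all genes. Lypd6b, which like Lypd6 is known to act on nicotinic receptors, averaged 0.261 in CKO and 0.438 in control, with a log2 difference of -0.58. Its UMI rate in CKO was 0.553 of that in control (0.509 to 0.6004). It was lower in CKO in each class, at 0.185 against 0.268 in Calb2-high, 0.292 against 0.481 in Calb2-low and 0.380 against 0.528 in type II cells. Over all neurons it was 0.179, 0.270 and 0.424 in CKO stretches 1, 3 and 4, against 0.5005 and 0.387 in control stretches 2 and 5. There stretch 4 again lay with control, and without it the log2 difference was -0.73, past 1.5-fold. In Calb2-high cells stretch 4 lay below both control stretches, at 0.223 from 23 UMIs, against 0.270 and 0.267. It also did so in type II cells, at 0.276 from 17 UMIs, against 0.457 and 0.637. CKO stretch 3, at 0.460 in type II cells, overlapped control there. Lypd6 itself had 115 UMIs in CKO and 279 in control. Cd59a, an inhibitor of the complement attack complex, averaged 2.04 in CKO and 2.11 in control.

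Few partners of Chrnb2 were detected. Of 16 nicotinic subunit genes, 8 were in the matrix and Chrnb2 alone reached 0.2. Chrna4, the usual partner of beta2 in the brain, had 83 UMIs in CKO and 134 in control neurons, and Chrna7, the subunit of alpha7 receptors, had 30 and 24. By class, Chrna4 averaged 0.0349 in CKO and 0.0840 in control Calb2-high cells, 0.0152 and 0.0211 in Calb2-low cells, and 0 UMIs in type II cells of both genotypes.

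Of 12 listed genes of nicotinic receptor assembly, 10 were in the matrix and 9 reached 0.2, and 0 of these 9 were 1.5-fold apart, with a median log2 difference of -0.08. Ric3, a chaperone of nicotinic receptors, averaged 0.837 in CKO and 0.889 in control. Vsnl1, a calcium sensor that raises the surface level of alpha4beta2 receptors, averaged 4.58 in CKO and 6.44 in control (log2 -0.48). By stretch it was 4.04, 4.03 and 7.11 in CKO stretches 1, 3 and 4, against 6.49 and 6.39 in control stretches 2 and 5, so stretch 4 lay above both control stretches. By class, Vsnl1 averaged 4.33 in CKO and 4.70 in control Calb2-high cells, 6.72 and 8.07 in Calb2-low cells, and 0.299 and 0.262 in type II cells. Calb2-low cells, in which it was highest, were 39.4% of CKO and 66.3% of control neurons, and 73.2% of stretch 4. What part of the pooled difference this made was not tested. Hspa5, a chaperone of the endoplasmic reticulum, averaged 4.64 in CKO and 3.48 in control (log2 0.41). Its stretches overlapped, at 5.74, 3.44 and 5.02 in CKO stretches 1, 3 and 4, against 3.94 and 3.11 in control stretches 2 and 5. Calr, Canx, Ubqln1, Nptn, Rapsn and Agrn lay between -0.24 and 0.13 on the log2 scale.

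Of 12 listed genes of muscarinic receptors and acetylcholine turnover, 6 were in the matrix and 2 reached 0.2, and 0 of these 2 were 1.5-fold apart with the added 0.1. Ache, the acetylcholinesterase, averaged 0.742 in CKO and 1.01 in control. By stretch it was 0.695, 0.818 and 0.670 in CKO stretches 1, 3 and 4, against 1.11 and 0.933 in control stretches 2 and 5, and the stretches did not overlap. By class, Ache averaged 0.697 in CKO and 0.720 in control Calb2-high cells, 0.886 and 1.14 in Calb2-low cells, and 0.529 and 0.816 in type II cells. Calb2-low cells, in which it was highest, were 39.4% of CKO and 66.3% of control neurons. The part of the pooled Ache difference that this made was not tested. Prima1, which anchors the enzyme in the membrane, was a type II gene, at 1.15 in CKO and 0.954 in control type II cells and at 0.0148 or less in each type I class. Its mean over all neurons was 0.206 in CKO and 0.114 in control, a UMI rate ratio of 1.62 (1.40 to 1.88), so without the added 0.1 it passed 1.5-fold. Type II cells, in which Prima1 was high, were 17.2% of CKO and 11.1% of control neurons. What part of the difference this made was not tested. By stretch the mean over all neurons was 0.130, 0.281 and 0.198 in CKO stretches 1, 3 and 4, against 0.141 and 0.0930 in control stretches 2 and 5, and overlapped.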

How the data were processed

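Per the submitters' processing notes, Cell Ranger, Seurat and mm10 were used. The authors deposited 1 matrix of natural log values, ln(1 + 100000 × UMI count / cell total), a unit settled from the values, since 100% of values above 0 gave whole UMI counts within a tolerance of 0.01. The deposited genotype record gives each cell a genotype and no sample, so each genotype is 1 pool. Cells were joined by position, because 1 barcode occurs in both genotypes. How cells and genes were chosen is not given in the sources used here. Cells held 10379 to 100856 UMIs.

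Each level is a mean over cells of UMIs per 10000 UMIs. The log2 differences use an added 0.1, and ratios use exact Poisson intervals on UMI sums. The share of 0 in the Calb2-high class is given with the upper end of its exact interval. The calculation was tested on simulated data. Genes were counted past 1.5-fold or 2-fold where a mean reached 0.5, or 0.2 for gene lists. Genes named are the members, listed genes at 0.2, and the 5 highest and 5 lowest correlations with Lypd1 (3 highest for other members, of which 1 is not reported here). Others, including Lypd6, Chrna4, Chrna7, Gpr39, Adar, Chrm3, Pou4f1, Grm8, Rxrg, Pcdh20, Lrrc52 and Ttn, were added after their values were seen. The members and lists were chosen with earlier results of these data known. The stretches were noticed in the data. Alternatives covered scaling, pseudocount, depth, glial RNA, class limits and left-out stretches. Python 3.11.15, numpy 2.4.6, pandas 2.3.3 and scipy 1.17.1 were used. Gene positions are from the GENCODE annotation of mm10.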

Additional observations from a re-analysis of the deposited data

How the results depend on the processing

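Each setting was changed alone. Over all neurons, the Lypd1 log2 difference of -1.27 was -1.12 with a pseudocount of 1, -1.46 in glia-poor cells, -1.18 in type I cells, and -2.36 to -0.77 with 1 stretch left out. Lynx1, at -0.28, was -0.22 from pooled UMI rates, -0.20 with a pseudocount of 1, -0.35 in glia-poor cells, -0.20 in type I cells, and -0.39 to -0.21 with 1 stretch left out. Ly6h, at -0.00, turned to 0.018 after thinning and 0.12 in glia-poor cells, was -0.21 in type I cells, and ran from -0.24 to 0.23 with 1 stretch left out. Ly6e, at -0.49, was -0.89 with a pseudocount of 0.01, -0.090 with 1, and -0.70 to -0.31 with 1 stretch left out. Chrnb2, at -0.25, was -0.074 with a pseudocount of 1 and -0.37 to -0.17 with 1 stretch left out. A larger pseudocount shrinks low genes by construction. For the other changes of value the cause was not tested. In Calb2-low cells Lypd1, at -0.54, was -0.51 from pooled UMI rates and with a pseudocount of 1, -0.66 in glia-poor cells, -0.20 and -0.82 at Calb2 limits of 100 and 200, and -1.36 to -0.20 with 1 stretch left out. In Calb2-high cells, where Lypd1 rests on 23 CKO and 16 control UMIs, -0.03 turned to 0.13 after thinning and to 1.14 at a limit of 100, and was -0.12 to -0.01 with 1 stretch left out. The Ly6h Calb2-high over Calb2-low difference in CKO, near 0, turned to 0.027 without stretch 4, an alternative chosen after seeing the data. The Lypd1-high share of CKO neurons, 11.4%, was 13.9% at a limit of 5, 13.8% in type I cells, 7.91% in glia-poor cells, and 6.46% to 15.2% with 1 stretch left out. That of control neurons, 27.6%, was 31.0% in type I cells and 20.7% to 35.9% with 1 stretch left out. No paired analysis was possible because the cells carry a genotype and not a sample, and the fits per sample were not run for the same reason.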

Other observations

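Chrm3, the M3 muscarinic receptor, lay far below the mean used for gene lists and was chosen after its values were seen. It had 82 UMIs in CKO and 6 in control neurons, a ratio of UMI rates of 14.9 (6.54 to 41.6). Its mean was 0.0355, 0.0137 and 0.00138 in CKO stretches 1, 3 and 4, against 0.00227 and 0.00172 in control stretches 2 and 5. Stretches 1 and 3 were above both control stretches, and stretch 4 was below them.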
